A study of Homo sapiens with 8 samples.

Results

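The genes described here encode enhancer coactivators and transcription kinases: the BET proteins BRD2 and BRD3, the acetyltransferases EP300 and CREBBP, the Mediator subunits MED1 and MED12, the kinases CDK7 and CDK9, and the kinase inhibitor HEXIM1. These 9 genes were listed by name for their roles, with earlier results of these data known, and all 9 were among the 13307 genes with a normalized count in every library. The mRNA came from Panc-1, an established line of human pancreatic ductal carcinoma cells. Cells were transfected with control siRNA (siControl) or siRNA against PHF13 (siPHF13), a reader of histone H3 methylated at lysine 4, and each was sequenced untreated or after 48 h in medium with 10 ng/ml TGFβ, a cytokine that induces epithelial-mesenchymal transition (EMT). Each of the 4 groups had 2 libraries from this single line, and since the labels do not say whether they came from separate cultures, the p-values measure only the spread between these libraries, which may be technical.

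Between 39196214 and 46700806 reads per library lay on all 13307 genes together. PHF13 itself had 1804 and 1662.4 normalized counts in siControl, 524.2 and 558.3 in siPHF13, 1585.9 and 1709.5 in siControl + TGFβ, and 512.8 and 529.4 in siPHF13 + TGFβ, so that both depleted groups lay below both control groups (log2 fold change -1.68 without and -1.66 with TGFβ). The duct and carcinoma markers KRT8, KRT18, KRT19, VIM and CD44 each had at least 18357.7 normalized counts in every library. Of 15 markers of acinar, islet, leukocyte, endothelial and fibroblast cells, only CD14, COL1A1 and PDGFRB were in the table, and of these only COL1A1 exceeded 100 normalized counts, with 1887.1 to 16413.9.

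Enhancers act through proteins that write, read and relay histone acetylation. EP300 and CREBBP are paralogous acetyltransferases that acetylate histone H3 at lysine 27 at active enhancers, BET proteins bind acetylated histones through their bromodomains, and Mediator connects factors bound at enhancers with RNA polymerase II. CDK7, the kinase of TFIIH, phosphorylates the polymerase at the start of transcription, and CDK9, the kinase of P-TEFb, releases it from the pause near the promoter. HEXIM1 together with the 7SK RNA holds P-TEFb in an inactive complex.

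Depletion of PHF13 was followed by higher mRNA of HEXIM1 and CDK9, the inhibitor and the kinase of P-TEFb, and by lower mRNA of CREBBP, both without and with TGFβ. HEXIM1 rose 1.63-fold without and 1.85-fold with TGFβ, CDK9 rose 1.39-fold and 1.32-fold, and CREBBP was at 0.757 and 0.708 of its control level. EP300, the paralog of CREBBP, did not pass the test in either comparison. Without TGFβ, 2 of the 9 genes were higher and 1 lower at an adjusted p under 0.05, while 47.4% of all genes were called in this comparison (23.1% higher and 24.3% lower). With TGFβ, 2 were higher and 3 lower, against 50.4% of all genes (24.5% higher and 25.9% lower). Adjusted p-values are from limma with Benjamini-Hochberg adjustment over all 13307 genes. The same 3 genes passed in the same direction in both comparisons, which is 33.3% of the 9, while 38.6% of all genes did so. The called share of the 9 genes was thus near that of the whole table, and the values that follow describe single genes. These are levels of mRNA in a bulk culture, in which fewer cells of a kind and less RNA per cell cannot be told apart.

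**Figure D1:**
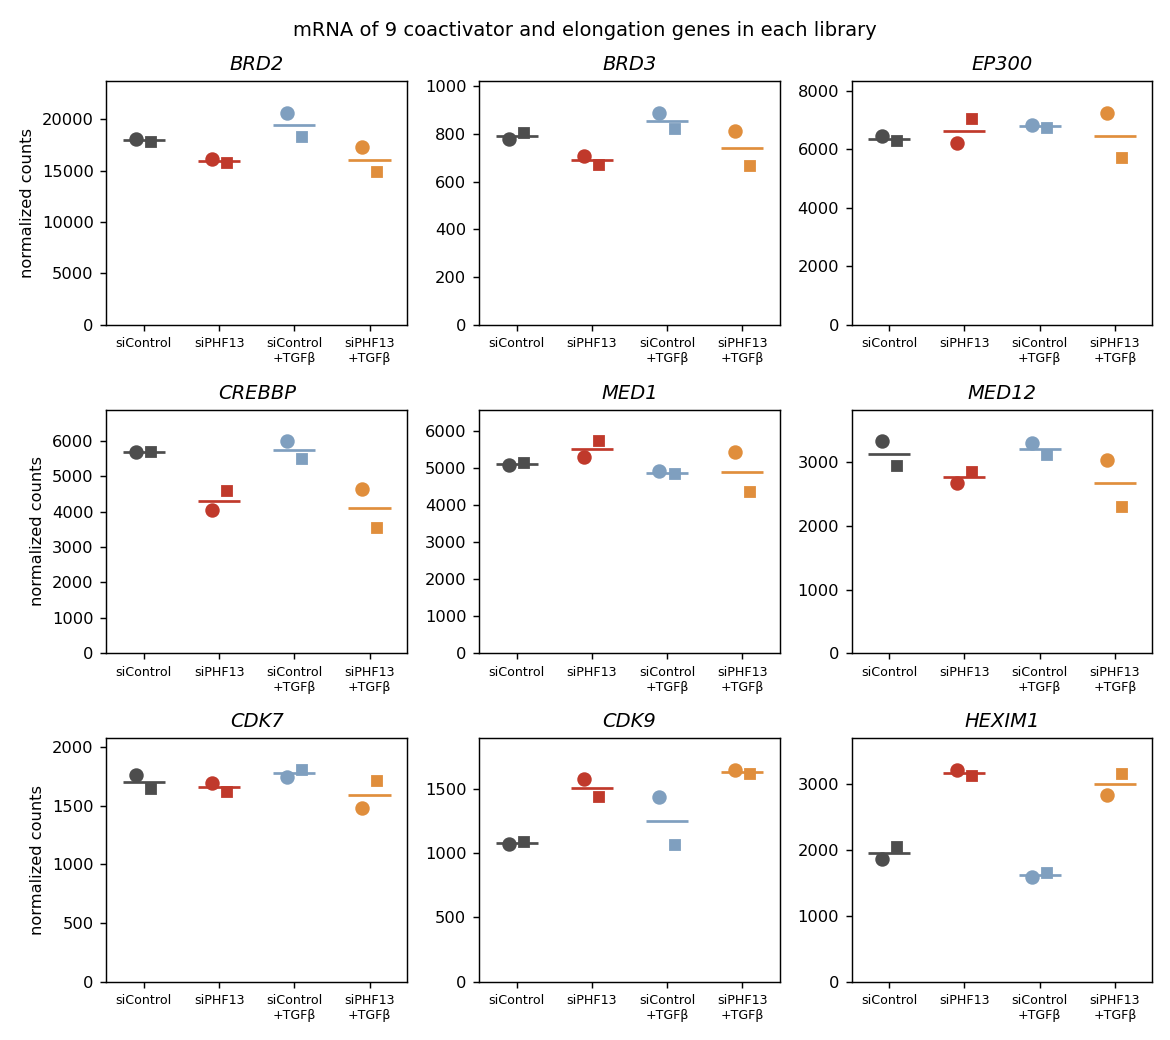
Normalized counts of the 9 genes (y axes from 0, 1 panel per gene) in the 4 groups (x axes), with a circle for replicate 1, a square for replicate 2 and a line at the group mean. HEXIM1 and CDK9 lie higher and CREBBP lower in both siPHF13 groups than in the siControl group with the same treatment.

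The promoters of these 3 genes are shown because their mRNA differed in both comparisons. Each is given as the 250 bases before the transcription start in RefSeq (GRCh38.p14), 5′ to 3′ on the strand of the gene, with matches to the searched motifs in capitals. They lie at chr17:45148225-45148474 on the plus strand for HEXIM1, chr9:127785784-127786033 on the plus strand for CDK9, and chr16:3880714-3880963 on the minus strand for CREBBP.
HEXIM1: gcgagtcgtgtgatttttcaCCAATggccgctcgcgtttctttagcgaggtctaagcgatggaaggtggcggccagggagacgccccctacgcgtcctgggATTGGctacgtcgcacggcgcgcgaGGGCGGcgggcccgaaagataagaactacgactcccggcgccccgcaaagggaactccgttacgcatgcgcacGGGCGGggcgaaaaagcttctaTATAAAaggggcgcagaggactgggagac
CDK9: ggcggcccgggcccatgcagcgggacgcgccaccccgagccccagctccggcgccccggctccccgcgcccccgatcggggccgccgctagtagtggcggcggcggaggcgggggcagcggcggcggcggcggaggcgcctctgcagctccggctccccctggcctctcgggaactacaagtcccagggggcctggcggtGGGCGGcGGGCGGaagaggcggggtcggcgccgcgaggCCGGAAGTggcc
CREBBP: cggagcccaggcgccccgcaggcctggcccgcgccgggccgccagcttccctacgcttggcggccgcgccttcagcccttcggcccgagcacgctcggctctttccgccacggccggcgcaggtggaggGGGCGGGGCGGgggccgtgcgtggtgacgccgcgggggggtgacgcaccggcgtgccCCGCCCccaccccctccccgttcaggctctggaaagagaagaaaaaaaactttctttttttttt
The motifs searched on both strands were the GC box GGGCGG, the CCAAT box CCAAT, the TATA box TATAAA, the E-box CACGTG, the ETS motif CCGGAAGT, the AP-1 motif TGACTCA and the CRE TGACGTCA. Of 35116 RefSeq promoter windows of the same length, 42.6% held the GC box, 32.0% CCAAT, 10.7% TATAAA, 6.3% CACGTG, 3.4% CCGGAAGT, 4.2% TGACTCA and 1.6% TGACGTCA. All 3 windows held a GC box, with 2 matches in HEXIM1, 2 in CDK9 and 3 in CREBBP, of which 2 overlap each other. Among the other genes, BRD2 had 1 match, BRD3 6 and MED12 1, and EP300, MED1 and CDK7 had 0. The HEXIM1 window also held 2 CCAAT boxes and a TATAAA that begins at position -29 relative to the start, and the CDK9 window held CCGGAAGT at position -12. G and C made up 62.4% of the HEXIM1 window, 82.0% of the CDK9 window and 72.4% of the CREBBP window, beside a median of 58.0% over all windows. Windows of the other genes reached from 50.4% (MED1) to 86.8% (BRD3), so a high share was not particular to these 3. A match to these letters is not evidence of binding.

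HEXIM1, the inhibitor of P-TEFb, showed the largest change of the 9 genes in either comparison. It is a gene of a single exon at chr17:43225842-43229466 (GRCh37, plus strand), and in the annotation 520 of its exonic bases overlap the antisense RNA HEXIM2-AS1. HEXIM1 had 1855.2 and 2040.8 normalized counts in siControl and 3213.7 and 3115.2 in siPHF13, which is 1948 ± 131 against 3164 ± 69.7 (mean ± SD, n = 2). Both siPHF13 libraries lay above both siControl libraries, as was so, in either direction, for 77.3% of all genes (log2 fold change 0.70, standard error 0.08, adjusted p = 7.76e-06). With TGFβ, the values were 1585.9 and 1649.8 in siControl and 2835.9 and 3155.1 in siPHF13, which is 0.89 on the log2 scale (standard error 0.08, adjusted p = 8.22e-07). The groups again did not overlap, and 71.7% of all genes were without overlap here. HEXIM1 was the single member past the stricter rule that also asks for an absolute log2 fold change over 0.58, which 18.4% of all genes passed without and 20.5% with TGFβ. It passed the test in both comparisons under all 18 alternative settings, with log2 fold changes of 0.63 to 0.77 and 0.81 to 0.96.

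CDK9, the kinase that HEXIM1 inhibits, lies at chr9:130547958-130553071 (GRCh37, plus strand). It had 1072.7 and 1089.3 normalized counts in siControl and 1576.5 and 1438.2 in siPHF13, with no overlap (log2 fold change 0.48, standard error 0.12, adjusted p = 0.00389). With TGFβ, it had 1437.1 and 1063.5 in siControl and 1647.4 and 1615.1 in siPHF13 (log2 fold change 0.40, standard error 0.12, adjusted p = 0.0108). The siControl + TGFβ libraries stood far apart, replicate 1 near the siPHF13 level and replicate 2 at that of untreated siControl. The result with TGFβ depended on them: the log2 fold change was 0.18 (adjusted p = 0.168) without replicate 2 and 0.62 (adjusted p = 0.000565) without replicate 1 of that group. The ratio of HEXIM1 to CDK9 normalized counts was 1.73 and 1.87 in siControl and 2.04 and 2.17 in siPHF13, and with TGFβ it was 1.1 and 1.55 in siControl and 1.72 and 1.95 in siPHF13. This ratio was formed after the values had been seen and was not tested.

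CDK7 encodes the kinase of TFIIH, which also activates other cyclin-dependent kinases, and lies at chr5:68530622-68573257 (GRCh37, plus strand). Its normalized counts were 1763.2 and 1638.9 in siControl, 1692.9 and 1617.8 in siPHF13, 1744.3 and 1806.1 in siControl + TGFβ, and 1479 and 1708.4 in siPHF13 + TGFβ. The groups overlapped without TGFβ, and with TGFβ both siPHF13 libraries were below both siControl libraries. Neither difference passed the test, with log2 fold changes of -0.04 (95% interval -0.22 to 0.15) and -0.16 (-0.34 to 0.03, adjusted p = 0.140). With TGFβ, the difference passed after correction for transcript length (-0.29, adjusted p = 0.00705) and without siPHF13 + TGFβ replicate 2 (-0.26, adjusted p = 0.0247).

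CREBBP passed the test in both depletion comparisons and EP300 in neither, and the difference between both genes was not tested. CREBBP lies at chr16:3775055-3930714 (GRCh37, minus strand) and had 5684.2 and 5671.9 normalized counts in siControl and 4044.2 and 4573.2 in siPHF13, or 5678 ± 8.71 against 4309 ± 374 (mean ± SD, n = 2). Both siPHF13 libraries were lower (log2 fold change -0.40, standard error 0.10, adjusted p = 0.00556). Without siPHF13 replicate 1 the log2 fold change was -0.31 and did not pass (adjusted p = 0.0729). With TGFβ, CREBBP had 5982.3 and 5481.2 normalized counts in siControl and 4634.4 and 3548.7 in siPHF13, again without overlap (log2 fold change -0.50, standard error 0.10, adjusted p = 0.00117). This difference passed in every alternative setting but was smaller without siPHF13 + TGFβ replicate 2 (-0.31, adjusted p = 0.00496) and after correction for transcript length (-0.29, adjusted p = 0.00720).

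EP300 lies at chr22:41488596-41576081 (GRCh37, plus strand) and had 6432.5 and 6281.8 normalized counts in siControl, 6209.6 and 7027.5 in siPHF13, 6838.3 and 6709.3 in siControl + TGFβ, and 7240.4 and 5685.5 in siPHF13 + TGFβ. The siPHF13 libraries overlapped the siControl libraries in both comparisons. The log2 fold changes were 0.06 (95% interval -0.15 to 0.26) without and -0.08 (-0.28 to 0.12) with TGFβ. Without siPHF13 + TGFβ replicate 1, the difference with TGFβ passed the test (-0.25, adjusted p = 0.00915). Within each library, the ratio of EP300 to CREBBP normalized counts was 1.13 and 1.11 in siControl and 1.54 and 1.54 in siPHF13. With TGFβ it was 1.14 and 1.22 in siControl and 1.56 and 1.60 in siPHF13. The 4 siPHF13 ratios were all above the 4 siControl ratios, although the 2 siPHF13 + TGFβ libraries differed in the level of both genes. This was not particular to the pair. Over both treatments, MED1 over MED12 was 1.785 to 2.004 in siPHF13 and 1.481 to 1.743 in siControl. CDK9 over CDK7 was 0.889 to 1.114 in siPHF13 and 0.5888 to 0.8239 in siControl. HEXIM1 over CDK9 and BRD2 over BRD3 overlapped. These ratios were likewise formed after the values had been seen and were not tested.

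**Figure D2:**
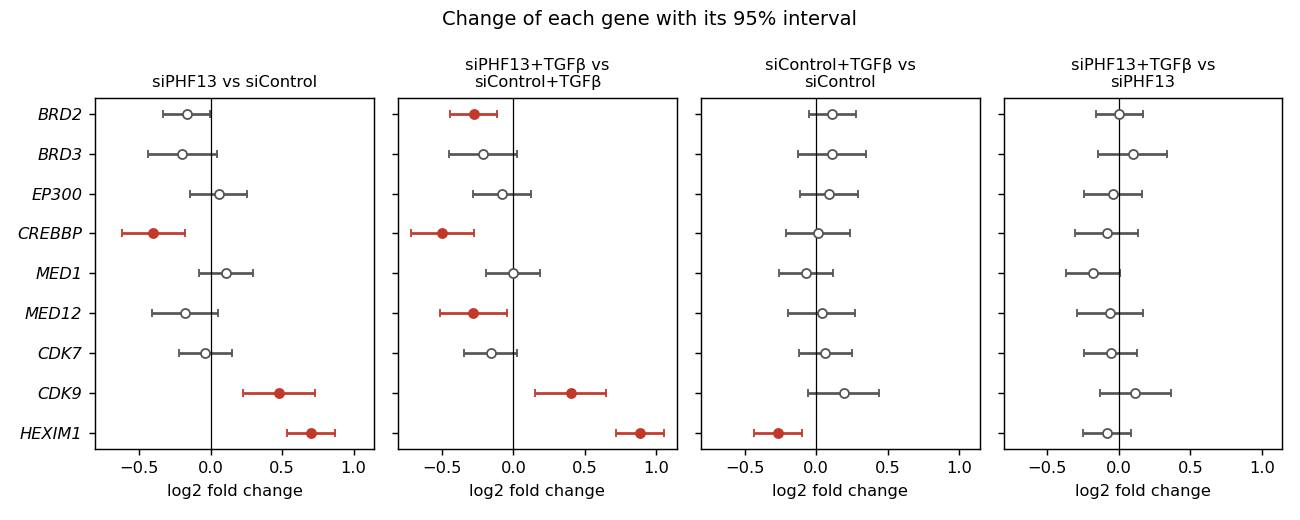
Log2 fold changes of the 9 genes on the scale log2(normalized count + 1) for depletion without and with TGFβ and for TGFβ in siControl and in siPHF13 cells. Lines are 95% intervals from limma, and filled red points mark an adjusted p under 0.05. HEXIM1 and CDK9 lie to the right of 0 and CREBBP to the left in both depletion comparisons, and no point is red for TGFβ in siPHF13 cells.

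Of the Mediator subunits, MED12 passed the test with TGFβ and MED1 in neither comparison. MED12, a subunit of the kinase module of Mediator together with CDK8 or CDK19, lies at chrX:70338393-70363953 (GRCh37, plus strand). It had 3328.2 and 2942.7 normalized counts in siControl and 2677.6 and 2848.9 in siPHF13 (log2 fold change -0.18, 95% interval -0.41 to 0.05, adjusted p = 0.188). This difference passed with only the libraries compared (adjusted p = 0.0296) and without siPHF13 + TGFβ replicate 1 (0.0413) or replicate 2 (0.0401). With TGFβ it had 3307.6 and 3118.6 in siControl and 3041 and 2301.3 in siPHF13, a difference that passed (log2 fold change -0.28, standard error 0.11, adjusted p = 0.0440) but was lost under 11 of the 18 alternative settings. Among these were the removal of siPHF13 + TGFβ replicate 2 (-0.08, adjusted p = 0.487) and the correction for transcript length (-0.10, adjusted p = 0.396).

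MED1, a subunit through which nuclear receptors contact Mediator, lies at chr17:37560538-37607525 (GRCh37, minus strand). It had 5070.5 and 5130.3 normalized counts in siControl and 5297.5 and 5709.6 in siPHF13 (log2 fold change 0.11, 95% interval -0.08 to 0.30). With TGFβ, 4899.9 and 4825 in siControl stood between 5427.9 and 4334.1 in siPHF13, and the difference was near 0 (95% interval -0.19 to 0.18). Neither comparison passed the test, but after correction for transcript length both did, at 0.22 without TGFβ (adjusted p = 0.0144) and 0.19 with TGFβ (adjusted p = 0.0298).

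Of the BET genes, BRD2 passed the test with TGFβ, and BRD2 without TGFβ and BRD3 in both comparisons did not. BRD2 lies at chr6:32936371-32949282 (GRCh37, plus strand) and had 18102.5 and 17830.1 normalized counts in siControl and 16181 and 15798.9 in siPHF13, without overlap (as for 77.3% of all genes), and did not pass (log2 fold change -0.17, standard error 0.08, adjusted p = 0.0856). With TGFβ it had 20634.6 and 18268.2 in siControl and 17284.4 and 14853.2 in siPHF13 and passed (log2 fold change -0.28, standard error 0.08, adjusted p = 0.00791). The result with TGFβ was lost without siControl + TGFβ replicate 1 (-0.19), without siPHF13 + TGFβ replicate 2 (-0.17) and after correction for transcript length (-0.15, adjusted p = 0.0731). It passed after correction for GC content and length together (-0.19, adjusted p = 0.0113), a setting chosen after seeing the data. The result without TGFβ passed when only the libraries compared were fitted (adjusted p = 0.00244) and without either siPHF13 + TGFβ library.

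BRD3, at chr9:136895427-136933657 (GRCh37, minus strand), had 777.7 and 802.8 normalized counts in siControl, 709.2 and 669.8 in siPHF13, 889.4 and 819.8 in siControl + TGFβ, and 815 and 665.1 in siPHF13 + TGFβ. Its siPHF13 libraries were below the siControl libraries in both comparisons, where 77.3% and 71.7% of all genes were without overlap. The log2 fold changes of -0.20 (95% interval -0.44 to 0.04, adjusted p = 0.163) and -0.21 (-0.45 to 0.03, adjusted p = 0.127) did not pass the test. With siPHF13 + TGFβ replicate 1 left out, BRD3 passed with TGFβ (-0.36, adjusted p = 0.0188). In the annotation, 1283 exonic bases of BRD3 overlap BRD3OS on the other strand, and the strand setting of the counting is not given in the sources used here.

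In siControl cells 1 of the 9 genes (11.1%) passed the test for TGFβ, near the 15.9% of all genes that did, 9.21% higher and 6.67% lower. HEXIM1 fell from 1855.2 and 2040.8 to 1585.9 and 1649.8 normalized counts, without overlap, as for 60.2% of all genes (log2 fold change -0.27, standard error 0.08, adjusted p = 0.0332). It did not pass the stricter rule with the fold threshold, which 4.79% of all genes passed. This result was lost on leaving out either library of siControl, siPHF13 or siControl + TGFβ, with adjusted p-values of 0.0502 to 0.319. CDK9 was 0.19 higher on the log2 scale (95% interval -0.06 to 0.44) and passed only without siControl + TGFβ replicate 2 (0.41, adjusted p = 0.0221).

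In siPHF13 cells 0 of the 9 passed for TGFβ with limma, edgeR or DESeq2, 0 had an unadjusted p under 0.05 with limma, and 3.07% of all genes were called. HEXIM1 had a log2 fold change of -0.08 (95% interval -0.25 to 0.09) in these cells. The interaction asks whether the response to TGFβ differed between siPHF13 and siControl cells. Again 0 of 9 passed with limma, edgeR or DESeq2, 0 had an unadjusted p under 0.05 with limma, and 0.413% of all genes were called. For HEXIM1 the interaction was 0.19 (95% interval -0.05 to 0.42, adjusted p = 0.665), so that its fall with TGFβ was not shown to differ between siControl and siPHF13 cells. The intervals of the interaction reached from -0.43 to 0.42 over the 9 genes.

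Over the 10460 genes with a mean of at least 100 and a known transcript length, the median absolute difference between replicates was 0.126 on the log2 scale in siPHF13 + TGFβ and 0.0585 to 0.0946 in the other groups. Among the 9 genes the widest gap was that of CDK9 in siControl + TGFβ (0.43), and CDK9 differed by 0.03 in siPHF13 + TGFβ. In that group, replicate 1 exceeded replicate 2 by 0.40 on the log2 scale for MED12, 0.39 for CREBBP, 0.35 for EP300, 0.33 for MED1, 0.29 for BRD3 and 0.22 for BRD2. CDK7 (-0.21) and HEXIM1 (-0.15), with canonical transcripts of 1426 and 3625 bases, went the other way. CREBBP, EP300, MED1 and MED12 have the longest transcripts of the 9, with 10790, 8779, 8137 and 6925 bases. Across 10460 genes the difference between these replicates correlated with transcript length (Spearman rho = 0.363), beside -0.013 in siControl, -0.233 in siPHF13 and -0.086 in siControl + TGFβ. The log2 fold changes correlated with length as well, with rho = -0.153 for depletion without and -0.244 with TGFβ. These correlations are across genes of the same libraries, which are not independent replicates. After correction for transcript length, CREBBP was at -0.29 in both comparisons and passed, whereas BRD2 and MED12 lost their calls with TGFβ. After correction for GC content and length together, BRD2 kept its call with TGFβ and MED12 did not. The part of transcript length in these results was not tested otherwise.

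**Figure D3:**
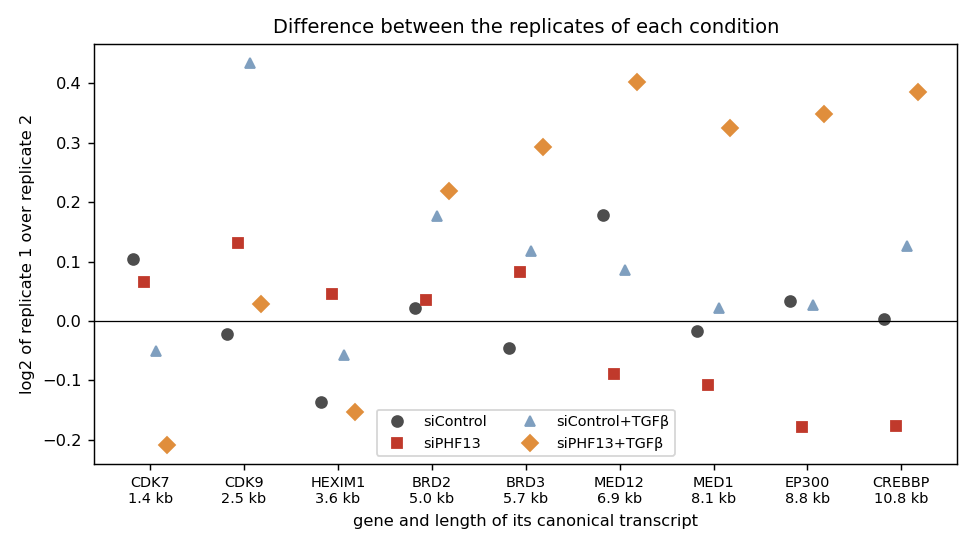
Log2 of replicate 1 over replicate 2 (y axis) in each of the 4 groups for the 9 genes, ordered by the length of the canonical transcript (x axis). The long genes CREBBP, EP300, MED1 and MED12 lie above 0 in siPHF13 + TGFβ (0.33 to 0.40) and below 0 in siPHF13.

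Levels of different genes were compared per kilobase of canonical transcript. In siControl, BRD2 was highest with 3653 and 3598 normalized counts per kb, followed by CDK7 (1236 and 1149), EP300 (732.7 and 715.6) and MED1 (623.1 and 630.5). HEXIM1 (511.8 and 563) and CREBBP (526.8 and 525.7) overlapped, as did MED12 (480.6 and 424.9) and CDK9 (432 and 438.7), and BRD3 was lowest (137.4 and 141.8). In siPHF13 without TGFβ, HEXIM1 had 886.5 and 859.4 and stood above EP300 (707.3 and 800.5) and MED1 (651 and 701.7). In siPHF13 + TGFβ, HEXIM1 (782.3 and 870.4) overlapped EP300 (824.7 and 647.6) and stood above MED1 (667.1 and 532.6). Without TGFβ, CDK9 in siPHF13 with 634.9 and 579.2 stood above CREBBP (374.8 and 423.8) and MED12 (386.7 and 411.4), which overlapped.

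The wider machinery around these genes was examined in 7 lists with 92 genes, of which 90 were in the table, the 9 genes included. Of the 81 others, 20 were higher and 21 lower after depletion without TGFβ, and 25 higher and 26 lower with TGFβ. Thus 50.6% and 63.0% were called, beside 47.4% and 50.4% of all genes. In the single lists, the 9 genes included, 42.9% to 53.3% were called without and 57.6% to 71.4% with TGFβ. The counts of each list below are to be read beside the shares of all genes. The median log2 fold change of the 81 was 0.01 without and -0.01 with TGFβ, beside -0.00094 and 0.0034 over all genes. TGFβ in siControl cells gave 2 higher and 3 lower of the 81 (6.17%), beside 9.21% higher and 6.67% lower of all genes. In siPHF13 cells and for the interaction 0 passed with limma, with 5 and 2 at an unadjusted p under 0.05, and 3.07% and 0.413% of all genes passed.

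The list of P-TEFb and the 7SK complex has 7 genes, CDK9 and HEXIM1 included. Of these, 2 were higher and 1 lower without TGFβ and 4 higher and 1 lower with TGFβ. The median log2 fold change of the list, CDK9 and HEXIM1 included, was 0.16 without and 0.37 with TGFβ. Without CDK9 and HEXIM1, the middle value of its other genes was -0.01 (CCNT1) without and -0.001 (LARP7) with TGFβ. Medians of the other lists reached from -0.18 to 0.20 without TGFβ and from -0.27 to 0.23 with TGFβ, with TFIIH highest of these in both. Beside CDK9 and HEXIM1, the genes past the test were HEXIM2, the paralog of HEXIM1, MEPCE, which caps the 7SK RNA, and CCNT2, a cyclin partner of CDK9. CCNT2 was lower in both comparisons (-0.26 and -0.23), MEPCE higher with TGFβ (0.37). HEXIM2 was 1.16 higher with TGFβ (adjusted p = 0.00400), at 66.8 and 46.3 normalized counts in siControl and 96.1 and 163.6 in siPHF13, and lost its call without siPHF13 + TGFβ replicate 2. Its exons overlap antisense RNAs over 567 and 1026 bases.

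Of 9 genes of TFIIH, 3 were higher and 1 lower without TGFβ and 5 higher and 1 lower with TGFβ. GTF2H3, a core subunit of TFIIH, had 1367.7 and 1307.4 normalized counts in siControl and 2295.7 and 2154.4 in siPHF13 (log2 fold change 0.73, adjusted p = 2.23e-05), and rose by 0.88 with TGFβ (adjusted p = 3.67e-06). Of 12 acetyltransferases and p160 coactivators, 1 was higher and 5 lower without TGFβ, and 1 higher and 6 lower with TGFβ. NCOA2, a p160 coactivator of nuclear receptors, had a log2 fold change of -0.54 without and -0.74 with TGFβ, the latter from 2724.3 and 2666 normalized counts to 1737 and 1493.8. Of 6 BET and bromodomain coactivators, 1 was higher and 2 lower without TGFβ and 1 higher and 3 lower with TGFβ.

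Of 33 Mediator genes, 10 were higher and 6 lower without TGFβ and 11 higher and 8 lower with TGFβ. MED11 and MED30, of the head of Mediator, were higher in both comparisons (0.94 and 0.74 for MED11, 0.64 and 0.60 for MED30). Both are low, with 111.9 to 264.7 normalized counts for MED11 and 127.5 to 235.7 for MED30. With TGFβ, MED31 of the middle module (-0.60) and MED12L, the paralog of MED12 (-1.07), were lower. MED31 had 209.1 and 216 normalized counts in siControl + TGFβ and 140.3 and 138.6 in siPHF13 + TGFβ. MED12L had 173.6 and 190.3 in siControl + TGFβ and 137.1 and 53.9, far apart, in siPHF13 + TGFβ. Neither passed without TGFβ (adjusted p = 0.114 for MED31 and 0.0757 for MED12L). MED11 lost its call with TGFβ without siPHF13 + TGFβ replicate 2 (adjusted p = 0.0510). MED12L lost its call without single libraries, and MED30 without single libraries and, with TGFβ, after correction for transcript length. In the annotation, 1231 exonic bases of MED31 overlap TXNDC17 on the other strand.

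Of 8 genes of the super elongation complex, 3 were higher and 1 lower without TGFβ and 3 higher and 2 lower with TGFβ. AFF1, a scaffold of this complex, had 2540.9 and 2419.2 normalized counts in siControl and 1382.6 and 1540.8 in siPHF13 (log2 fold change -0.76, adjusted p = 8.48e-05), and -0.99 with TGFβ. ELL, an elongation factor in the complex, was higher in both comparisons (0.70 and 0.80). Of 15 pausing and elongation factors, 2 were higher and 6 lower without TGFβ and 2 higher and 8 lower with TGFβ. PAF1, of the complex that travels with elongating polymerase, had 48713.3 and 48737.4 normalized counts in siControl and 30611.3 and 31214.2 in siPHF13 (-0.66, adjusted p = 4.16e-06), and it passed the test at -0.56 with TGFβ.

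**Figure D4:**
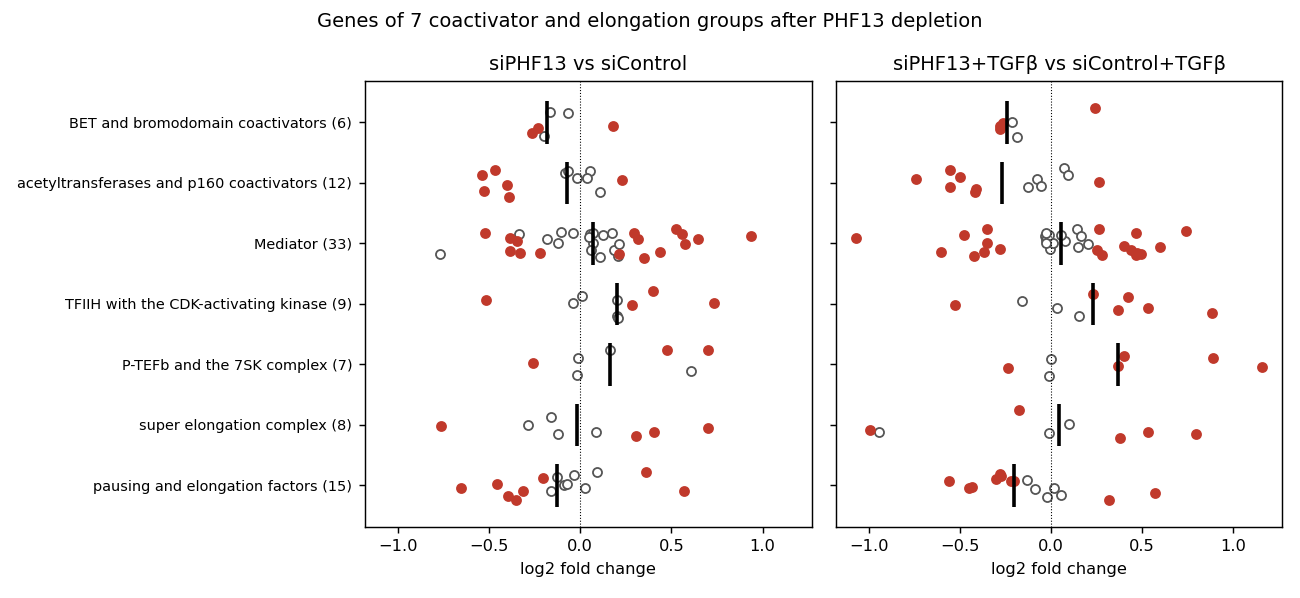
Log2 fold changes of the genes in the 7 wider lists after depletion of PHF13 without and with TGFβ, with a point per gene (red at an adjusted p under 0.05), a black bar at the median of the list and the number of genes in brackets. Lists hold genes on both sides of 0. Without TGFβ the medians reach from -0.18 (BET and bromodomain coactivators) to 0.20 (TFIIH). With TGFβ they reach from -0.27 (acetyltransferases and p160 coactivators) to 0.37 (P-TEFb and the 7SK complex, which includes CDK9 and HEXIM1). Without CDK9 and HEXIM1, the middle value of that list with TGFβ is -0.001 (LARP7).

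Likeness of pattern was measured by Pearson correlation of log2 values over the 8 libraries, which mostly reflects the differences between groups. Within the wider lists, HEXIM1 was most like GTF2H3 (r = 0.988), CREBBP most like the p160 coactivator NCOA1 (0.979), CDK9 most like CCNH, the cyclin of CDK7 (0.945), and BRD2 most like BRD3 (0.946). BRD3 was closest to the elongation kinase gene CDK13 (0.970), MED12 to the acetyltransferase gene KAT6B (0.919), MED1 to MED13 (0.836) and CDK7 to MED6 (0.779). Among the 11200 other genes whose mean reached 100 normalized counts, those most like HEXIM1 were APOLD1, GMCL1 and ASCC1, each with r = 0.998.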

How the data were processed

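mRNA was sequenced from Panc-1 cells in 4 groups with 2 libraries each, taken from the sample labels. The authors trimmed paired-end reads with Trim Galore 0.4.1, mapped them to hg19 with STAR 2.7.0, counted reads on exons with HTSeq 0.12.4 and normalized the counts with DESeq2. The deposited table holds a signal per gene and library, the count divided by a size factor of the library. The authors' own comparisons, with log2 fold changes and p-values, were not used.

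All values of each library were whole multiples of a single step (within 0.001 reads, 100% of values), which gave back the reads. In siPHF13 replicate 1 the step was 0.995, close to 1, so that whole reads there are less certain. Columns were assigned to samples by the siRNA, treatment and replicate in their names, where NT and NCT were read as siControl without and with TGFβ from the methods and the naming of the authors' comparisons.

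A single limma fit (limma 3.58.1, R 4.3.3, trended prior variance, two-sided) on log2(normalized count + 1) over all 8 libraries gave 5 comparisons, with Benjamini-Hochberg adjustment over 13307 genes and calls at an adjusted p under 0.05. Fold changes are on that scale and understate those of low genes. A minimum of 10 normalized counts in 2 libraries removed 0 genes. The stricter rule with an absolute log2 fold change over 0.58 follows the methods of the study. The labels give no batch. The procedure was tested on simulated data.

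Other settings tried were no minimum, a pseudocount of 5, a mean of at least 100, TMM and the quasi-likelihood test of edgeR 4.0.16, DESeq2 1.42.0, a replicate block, fits restricted to the libraries compared, a correction for transcript length by natural splines (5 degrees of freedom), and each library left out in turn. A correction for GC content and length together was chosen after seeing the data. A group left with 1 library was assumed to vary like the others. Lengths and positions are from GENCODE on GRCh37, matched by symbol for 12317 genes (92.6%). Promoters are from RefSeq on GRCh38.p14 and were not combined with those positions.

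The members and the wider lists were chosen with earlier results of these data known. From the lists, genes past both thresholds in a comparison of groups are named, with the gene of the lists most like each member and, for the member that changed most, the 3 most alike in the table. 1 gene so selected is not reported here.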

Additional observations from a re-analysis of the deposited data

How the results depend on the processing

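The number of the 9 genes called was 3 for depletion without TGFβ, 1 for TGFβ in siControl cells, 5 for depletion with TGFβ, and 0 for TGFβ in siPHF13 cells and for the interaction. With only the libraries compared it was 5 for depletion without TGFβ. With the fold threshold as well it was 1, 0 and 1 for the first 3 comparisons. Leaving out 1 library gave 2 to 5 for depletion without TGFβ, 0 to 1 for TGFβ in siControl cells, 3 to 7 for depletion with TGFβ, 0 to 1 for TGFβ in siPHF13 cells, where MED1 passed without siPHF13 + TGFβ replicate 1 (-0.34, adjusted p = 0.00804), and 0 throughout for the interaction. MED1 turned from -0.0036 to 0.19 for depletion with TGFβ after correction for transcript length and to 0.20 after correction for GC content and length. The cause was not tested. Samples with the same replicate number did not deviate together (correlations of -0.089 to 0.05 over 13307 genes), so the numbers were not taken to pair them. With a replicate block the counts were 3, 1, 5, 0 and 0 and no call of the 9 genes changed. Over all genes, 2114 were called for TGFβ in siControl cells but 944 without siControl replicate 2. For TGFβ in siPHF13 cells 409 were called, 268 with only the libraries compared, and 223 to 645 on leaving out 1 library. For the interaction 55 were called, 137 with DESeq2, and 12 to 321 on leaving out 1 library. A fit of only the libraries compared does not exist for the interaction, which uses all 8. With 2 libraries per group, the 95% intervals of the differences between 2 groups reached 0.164 to 0.249 to either side on the log2 scale.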
